A study of Mus musculus with 2 samples.

Results

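The cells described here are tumor mononuclear phagocytes (TMPs) with the highest share of their transcripts on Cxcl9, Iigp1 and Gbp2. They were chosen by measured values: in every cell, the unique molecular identifiers (UMIs, 1 per captured transcript) of the 3 genes were summed and divided by all UMIs of the cell, and the top 5% of the pooled cells, 718 of 14351, were taken as members. MerTk+ CD64+ phagocytes had been sorted by fluorescence-activated cell sorting from B16 melanoma tumors, a transplanted mouse melanoma, grown in C57Bl/6 mice, and loaded on a Chromium droplet instrument for 3-prime single-cell libraries. The study asked how the loss of Fcmr, a putative receptor for soluble immunoglobulin M, alters the makeup of these phagocytes. One library came from Fcmr+/+ mice, with intact Fcmr, and the other from Fcmr-/- mice, which lack it, and no drug treatment is named for either. After the filters, the Fcmr+/+ library held 6352 cells and 128408544 UMIs, and the Fcmr-/- library held 7999 cells and 124630621 UMIs. The number of mice behind each library is not given in the sources used here, so each library counts as 1 sample, no test between genotypes was possible, and no p-value is given. Every interval is an exact 95% interval of a Poisson count, or for shares of cells a Clopper-Pearson interval, and covers only the error of counting. Because all genes of a cell were read in the same droplet as the genes of the rule, the levels of other genes in members are a description of the chosen cells and not a test.

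Interferon-gamma, made mainly by T cells and NK cells, binds a receptor on macrophages that activates the kinases JAK1 and JAK2 and, through them, transcription from gamma-activated sites in target genes. Type I interferons signal through another receptor to a complex with STAT2 and IRF9 that binds interferon-stimulated response elements, and many genes respond to both. Cxcl9 is a chemokine that attracts activated T and NK cells through the receptor CXCR3, Iigp1 is an immunity-related GTPase, and Gbp2 is a guanylate-binding protein; GTPases of both families act on the vacuoles that hold intracellular microbes.

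In GRCm38, Cxcl9 (ENSMUSG00000029417) lies on the minus strand at chr5:92321347-92328079 and Gbp2 (ENSMUSG00000028270) on the plus strand at chr3:142620602-142638008. Promoter windows of 250 bases before and 50 after each RefSeq start, in GRCm38.p6, were searched on both strands for 3 motifs. These were the gamma-activated site in a strict form (TTCNNNGAA), a relaxed form of it (TTNCNNNAA) and the core of the interferon-stimulated response element (GAAANNGAAA). The forms can overlap, and a strict site was also counted as relaxed where its letters fit both. Of all 32851 windows, 8.30% held the strict form, 36.6% the relaxed form and 3.44% the response element core. A stretch of 100 bases is shown for each of 5 genes because it holds matches in the promoters of 2 genes of the rule and of 3 genes high in members. All are written 5-prime to 3-prime on the strand of the gene with matches in capitals.
Cxcl9, chr5:92328080-92328179, minus strand: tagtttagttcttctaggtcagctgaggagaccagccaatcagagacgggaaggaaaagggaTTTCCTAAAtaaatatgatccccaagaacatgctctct
Gbp2, chr3:142620524-142620623, plus strand: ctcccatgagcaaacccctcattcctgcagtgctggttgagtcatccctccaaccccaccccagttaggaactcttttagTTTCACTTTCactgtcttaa
Serpina3g, chr12:104236047-104236146, plus strand: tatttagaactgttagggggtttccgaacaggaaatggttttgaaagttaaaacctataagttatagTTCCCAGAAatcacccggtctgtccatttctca
Igtp, chr11:58199456-58199555, plus strand: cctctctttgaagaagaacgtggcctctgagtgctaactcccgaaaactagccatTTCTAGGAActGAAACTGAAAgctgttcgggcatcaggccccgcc
Cxcl10, chr5:92349040-92349139, minus strand: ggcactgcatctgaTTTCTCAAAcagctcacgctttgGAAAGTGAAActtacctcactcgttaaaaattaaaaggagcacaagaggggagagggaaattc
The whole Cxcl9 window held 2 relaxed gamma-activated sites, and the stretch shown holds only the site nearer the start. The capitals mark that relaxed site in Cxcl9 and a response element core, on the other strand, in Gbp2. In Serpina3g they mark a site of the strict form, and in Igtp a strict site followed by a response element core. In Cxcl10 they mark a relaxed site and a core. Of the 15 genes highest in members by the rule given further on, 11 had a window, of which 11 held the relaxed form, 6 the core and 4 the strict form in at least 1 window. Of the 15 lowest, 13 had a window, of which 7 held the relaxed form, 2 the core and 0 the strict form. No window was used for Iigp1, Fam26f, Gbp4, Pla2g16 and Ly6a, nor for Fabp4 and Itga6 of the 15 lowest. A gene with several RefSeq starts could match in any of them, and counted by gene the relaxed form was found for 40.0%, the core for 3.99% and the strict form for 9.55% of 27025 genes. A match is a description of letters in a window and does not show binding.

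Members came almost entirely from the Fcmr-/- library. Of the 718 members, 680 were Fcmr-/- cells, 94.7% (interval 92.8 to 96.2), and 38 were Fcmr+/+ cells, 5.29% (interval 3.77 to 7.19), where the Fcmr-/- library made up 55.7% of all cells. Members were 8.50% of Fcmr-/- cells (interval 7.90 to 9.13) and 0.598% of Fcmr+/+ cells (interval 0.424 to 0.820), a ratio of 14.2. The spread between mice is unknown, so the genotype cannot be told apart from other differences between the libraries.

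The score had no gap at the limit, and the members are the upper range of a continuous score rather than a separate type. The last member had 11.03 UMIs of the 3 genes per 10000 UMIs and the first cell outside had 11.02, and 74 members and 94 other cells lay within 10% of the limit. Members had a median score of 19.1 and a highest score of 207, and held between 7 and 295 UMIs of the 3 genes. No UMI of the 3 genes was found in 80.2% of Fcmr+/+ cells and 46.9% of Fcmr-/- cells. A score of at least 1 was reached by 6.44% of Fcmr+/+ and 40.6% of Fcmr-/- cells, and a score of at least 50 by 4 and 47 cells. The difference between the libraries thus ran along the whole score, and among the top 1% of cells 132 of 144 were Fcmr-/- cells.

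**Figure D1:**
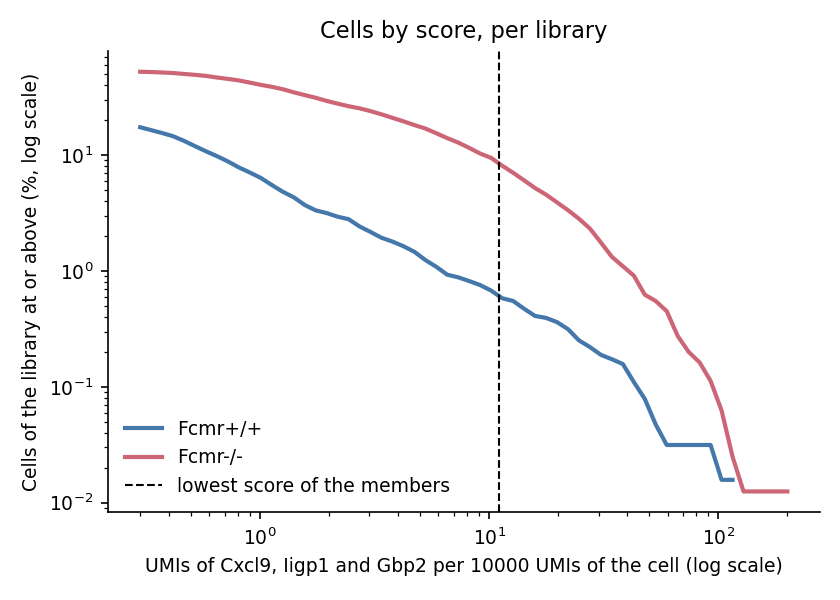
Percent of the cells of each library (log scale) at or above a given number of Cxcl9, Iigp1 and Gbp2 UMIs per 10000 UMIs of the cell (log scale), with the lowest score of the members dashed. At the dashed line the curves stand at 8.50% of Fcmr-/- and 0.598% of Fcmr+/+ cells, and the Fcmr-/- curve lies above the other wherever both are drawn.

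Depth moved with membership in the Fcmr-/- library. Fcmr-/- members had a median of 17383 UMIs against 12595 in the remaining Fcmr-/- cells, while Fcmr+/+ members had 16684 against 17982. With all cells split by depth into 4 equal parts, members were 5.09%, 6.58%, 10.8% and 14.4% of Fcmr-/- cells from the shallowest to the deepest. In Fcmr+/+ cells the same shares were 0.652%, 0.644%, 0.400% and 0.703%. The share was higher in Fcmr-/- cells in each of the 4 parts, and with every cell thinned to 5000 UMIs the rule again took 37 Fcmr+/+ and 681 Fcmr-/- cells. Mitochondrial genes took a median of 5.04% of UMIs in Fcmr+/+ members and 4.70% in the remaining cells, and 4.95% and 3.98% in the Fcmr-/- library. The libraries share 73 cell barcodes, and 9 Fcmr-/- members and 0 Fcmr+/+ members carry one of them.

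The 3 genes of the rule were not equally spread over the members. Levels are given in CPM, the summed UMIs of a gene over a group of cells, scaled to the same total UMIs in every group. Cxcl9 had 1659 CPM in Fcmr+/+ members against 4.01 in the remaining Fcmr+/+ cells, and 1344 in Fcmr-/- members against 52.2 in the remaining Fcmr-/- cells. Iigp1 had 140.4 CPM in Fcmr+/+ members against 2.32 in the remaining Fcmr+/+ cells, and 366 in Fcmr-/- members against 38.8 in the remaining Fcmr-/- cells. Gbp2 had 905 CPM in Fcmr+/+ members against 15.8 in the remaining Fcmr+/+ cells, and 622 in Fcmr-/- members against 83.3 in the remaining Fcmr-/- cells. Iigp1 (ENSMUSG00000054072) lies on the plus strand of chromosome 18 in GRCm38, from 60376027 to 60392634. These values follow from the rule, yet the remaining cells, which the rule pushed down, were also higher in the Fcmr-/- library for each of the 3 genes. Cxcl9 gave 61.3% of the 3-gene UMIs of Fcmr+/+ members and 57.6% in Fcmr-/- members, Gbp2 33.5% and 26.7%, and Iigp1 5.19% and 15.7%.

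Most members held more than 1 of the 3 transcripts. All 3 were found in 388 members, 13 of 38 Fcmr+/+ and 375 of 680 Fcmr-/- cells, exactly 2 in 283 and only 1 in 47. Thinned to 5000 UMIs, the share with all 3 was 18.4% and 32.2%. A Gbp2 UMI was found in 93.9% of members, a Cxcl9 UMI in 85.0% and an Iigp1 UMI in 68.7%. In thinned cells the shares with a UMI were 84.2% for Cxcl9, 28.9% for Iigp1 and 73.7% for Gbp2 in Fcmr+/+ members. They were 80.1%, 55.4% and 80.7% in Fcmr-/- members. The remaining cells gave 0.966%, 0.808% and 6.45% in the Fcmr+/+ library and 10.7%, 9.50% and 22% in the Fcmr-/- library. The sort leaves no other abundant cell type against which UMIs from free RNA could be set, so the shares in the remaining Fcmr+/+ cells are the lowest level measured here.

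Each gene of the rule was also read in cells chosen by the other two alone. In the top 5% of cells by Iigp1 and Gbp2, Cxcl9 had 649 CPM against 11.5 in the Fcmr+/+ library and 758 against 122 in the Fcmr-/- library. In the top 5% by Cxcl9 and Gbp2, Iigp1 had 100.4 CPM against 2.52 in the Fcmr+/+ library and 247 against 52.8 in the Fcmr-/- library. In the top 5% by Cxcl9 and Iigp1, Gbp2 had 634 CPM against 17.8 in the Fcmr+/+ library and 455 against 100.4 in the Fcmr-/- library. In each case the gene left out was higher in the chosen cells than in the remaining cells of the same library. The genes were read in the same libraries and cells, and the cells chosen by 2 genes shared 64.9% to 85.9% of the 718 members.

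Markers of phagocytes were present in members, and those of other cell types were low. Of 13 macrophage and sort genes, all reached 20 CPM in both libraries, and their sum was 19147 CPM in Fcmr+/+ members against 17613 in the remaining cells, and 19188 against 18038 in the Fcmr-/- library. Lyz2 was the most abundant. Mertk, the receptor tyrosine kinase of the sort, had 59.1 CPM in Fcmr+/+ members against 62.8 in the remaining cells, and 48.9 CPM in Fcmr-/- members against 48.7 in the remaining cells. Fcgr1, which encodes CD64, had 436 CPM in Fcmr+/+ members against 249 in the remaining cells, and 468 CPM in Fcmr-/- members against 386 in the remaining cells. Both genes of the sort were thus measured in members at levels like those of the remaining cells or above. Fcgr4, an activating Fc receptor, was the only gene of this list at least 2-fold higher in both libraries, with log2 ratios of 1.52 and 1.27. Cx3cr1, a chemokine receptor, was at least 2-fold lower in Fcmr+/+ members, at 7.39 CPM from 6 UMIs against 23.8 CPM in the remaining cells, and had 23.5 against 34.4 CPM in the Fcmr-/- library. Of the 13 genes, 5 had log2 ratios below 0 in each library.

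The 7 measured genes of the T and NK cell list summed to 0 UMIs in Fcmr+/+ members, which allows up to 3.70 CPM with the limit for a count of 0 set at 3 UMIs, against 0.948 CPM in the remaining cells. In Fcmr-/- members they summed to 17.0 CPM against 15.2, with Gzmb the most abundant and Ncr1 at 0, and 215 of the 219 UMIs lay in 5 cells. A UMI of the list was found in 9 Fcmr-/- members, 1.32% (interval 0.607 to 2.50), and in 1.42% of the remaining Fcmr-/- cells. Without all cells that hold such a UMI, the Fcmr-/- share of members was 94.7% and 65 in place of 63 genes were at least 2-fold higher in Fcmr-/- members. The B cell list summed to 4.93 CPM in Fcmr+/+ and 14.3 in Fcmr-/- members, against 12.4 and 9.98 in the remaining cells, nearly all of it Cd79b, with Ms4a1 at 0 in members of both libraries. The dendritic cell list summed to 1.23 and 15.7 CPM, the neutrophil list to 23.4 and 40.9, the melanoma list to 22.2 and 62.6 and the stroma list to 3.70 and 4.04. In the remaining cells these 4 lists summed to 8.02, 31.9, 40.7 and 4.52 CPM in the Fcmr+/+ library and to 12.5, 49.5, 64.2 and 5.93 CPM in the Fcmr-/- library. Fcmr itself had 0 UMIs in members of both libraries and 7 and 6 UMIs in the remaining Fcmr+/+ and Fcmr-/- cells, too few to check the genotypes. In Fcmr-/- members the most abundant genes of the 4 lists were Cd209a, Csf3r, Pmel and Pecam1, and Retnlg, Col1a1 and Col3a1 were at 0 in members of both libraries.

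For the other genes, members were set against the remaining cells of the same library, and a gene was counted when it had at least 20 CPM in either group. A counted gene was taken as higher or lower when it differed at least 2-fold after 1 CPM was added to both. In the Fcmr+/+ library 152 of 5558 genes were higher in members, 2.73%, and 105 were lower, 1.89%. In the Fcmr-/- library 63 of 5445 genes were higher, 1.16%, and 54 were lower, 0.992%. The Fcmr+/+ counts depended on the processing, with 444 higher and 517 lower genes when each cell was thinned to 5000 UMIs and 118 and 12 when the top 5% of each library by itself were taken, where the Fcmr-/- counts were 80 and 78, and 69 and 59. In both libraries together 46 of 5253 genes were higher, 0.876%, and 22 were lower, 0.419%. The median log2 ratio over all counted genes was -0.02 in the Fcmr+/+ and 0.02 in the Fcmr-/- library. The Fcmr+/+ members are only 38 cells with 811713 UMIs, against 12868232 UMIs in the Fcmr-/- members, so that counting error is larger there, and the remaining Fcmr-/- cells hold more of the 3 genes, so ratios in the libraries are not on equal ground.

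Genes were named by rank among those with at least 50 CPM in each library: 15 from the top and 15 from the bottom of the log2 ratio in whichever library showed less of it. The 15 highest were Serpina3g, Fam26f, Gbp4, AW112010, Igtp, Gbp3, Pla2g16, Ly6a, Gbp7, Fgl2, Irgm1, Ifi47, Upp1, Slamf8 and Cxcl10. Of these, Gbp3, Gbp4, Gbp7, Igtp, Irgm1 and Ifi47 are interferon-inducible GTPases. Serpina3g, a serine protease inhibitor of leukocytes, had 216 CPM in Fcmr+/+ members against 1.42 in the remaining cells, and 236 CPM in Fcmr-/- members against 15.6 in the remaining cells. The members' values rest on 175 and 3039 UMIs. It stood apart from the other genes, with log2 ratios of 6.48 and 3.84. A UMI of Serpina3g was found in 23 of 38 Fcmr+/+ and 446 of 680 Fcmr-/- members, and in 1.35% and 10.3% of the remaining cells. Reads of near-identical neighbors in the Serpina3 cluster may have been split by the counting. AW112010, a transcript induced by interferons, had 972 CPM in Fcmr+/+ members (interval 905 to 1042) against 43.5 in the remaining cells, and 1001 CPM in Fcmr-/- members (interval 983 to 1018) against 211 in the remaining cells. Fam26f, a membrane protein also named Calhm6, had 108 CPM in Fcmr+/+ members (interval 87.0 to 134) against 6.42 in the remaining cells, and 161 CPM in Fcmr-/- members (interval 154 to 168) against 25.5 in the remaining cells. Ly6a, the surface protein Sca-1, had 439 CPM in Fcmr+/+ members (interval 394 to 487) against 39.5 in the remaining cells, and 1229.9 CPM in Fcmr-/- members (interval 1211 to 1249) against 378 in the remaining cells. Ly6a is the one of these 4 for which members of the libraries lay furthest apart, with a log2 ratio of Fcmr-/- to Fcmr+/+ members of 1.49; in the remaining cells the same ratio was 3.23. For Serpina3g and AW112010 the ratio of Fcmr-/- to Fcmr+/+ cells was 0.13 and 0.04 among members and 2.78 and 2.25 among the remaining cells, so the libraries stood closer in members, which the same score picked in both.

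Other genes of the 15 work outside the interferon GTPases. Slamf8, a receptor of the SLAM family on macrophages, had 201 CPM in Fcmr+/+ members (interval 171 to 234) against 14.5 in the remaining cells, and 159.9 CPM in Fcmr-/- members (interval 153 to 167) against 56.7 in the remaining cells. Fgl2, a fibrinogen-like protein that is secreted or membrane-bound, had 373 CPM in Fcmr+/+ members (interval 332 to 418) against 84.5 in the remaining cells, and 446 CPM in Fcmr-/- members (interval 434 to 457) against 149 in the remaining cells. Upp1, uridine phosphorylase, had 56.7 CPM in Fcmr+/+ members (interval 41.5 to 75.6) against 2.92 in the remaining cells, and 51.7 CPM in Fcmr-/- members (interval 47.8 to 55.8) against 17.6 in the remaining cells. A UMI of Upp1 was found in 11 of 38 Fcmr+/+ and 215 of 680 Fcmr-/- members, and in 3.74% and 14.3% of the remaining cells. Pla2g16, a phospholipase, had log2 ratios of 2.32 and 1.75. For every one of the 15, leaving out the member with the most UMIs of the gene left a ratio of at least 2-fold in both libraries, the smallest being 1.20 for Cxcl10 in Fcmr+/+ members. Cxcl10 fell under 2-fold there when Gbp2 was left out of the rule, at 0.90.

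**Figure D2:**
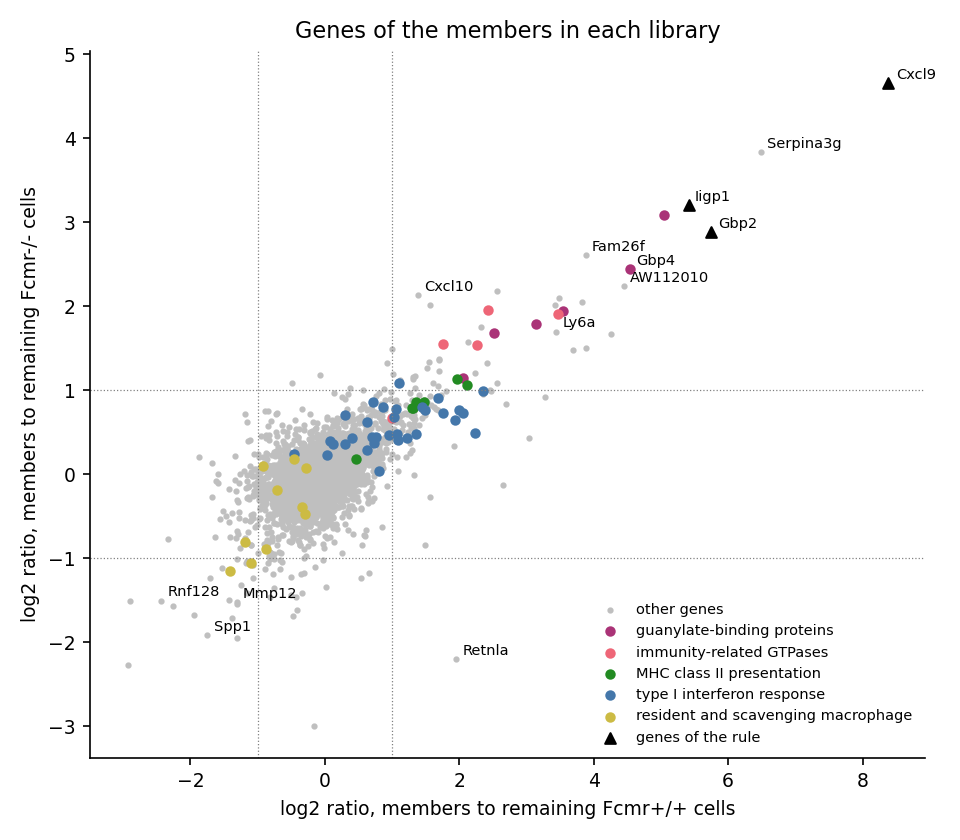
Each point is a gene with at least 20 CPM in both libraries, at its log2 ratio of members to remaining cells in the Fcmr+/+ (x axis) and Fcmr-/- (y axis) library, with dotted lines at 2-fold. The genes of the rule (triangles) were used to choose the cells. Serpina3g lies beside them at 6.48 and 3.84, and Retnla alone lies beyond 2-fold in opposite directions. The Fcmr-/- ratio of Retnla turned above 0 without Iigp1 in the rule and after thinning.

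The families of Gbp2 and Iigp1 were high with them. Of 9 further guanylate-binding proteins listed, 6 reached the level for counting in the Fcmr+/+ library and 7 in the Fcmr-/- library, and 6 and 7 of these were at least 2-fold higher in members, 0 and 0 at least 2-fold lower. The median log2 ratio was 3.34 in Fcmr+/+ and 1.88 in Fcmr-/- cells. Here and below, the shares of all genes given above are the background for such counts. Gbp4 had 65.3 CPM in Fcmr+/+ members (interval 48.9 to 85.4) against 1.84 in the remaining cells, and 113 CPM in Fcmr-/- members (interval 107 to 119) against 19.9 in the remaining cells. Gbp3 had 128 CPM in Fcmr+/+ members (interval 105 to 155) against 10.1 in the remaining cells, and 102 CPM in Fcmr-/- members (interval 97.0 to 108) against 25.9 in the remaining cells. Gbp7 had 188 CPM in Fcmr+/+ members (interval 159.8 to 221) against 31.9 in the remaining cells, and 231 CPM in Fcmr-/- members (interval 223 to 239.7) against 71.4 in the remaining cells. In all 3, members of both libraries stood several-fold above the remaining cells. Gbp2b had 38.2 CPM in Fcmr+/+ members against 0.188 and 40.7 in Fcmr-/- members against 3.89; in the Fcmr+/+ library 1 cell gave 21 of its 31 UMIs. Gbp5 (30.9 against 7.70 CPM in Fcmr-/- cells), Gbp8 (40.6 against 11.1) and Gbp9 (28.5 against 12.3) were also higher. These genes lie in 2 clusters of near-identical copies on chromosomes 3 and 5, so that reads may have been split among them.

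Of 12 further immunity-related GTPases and their relatives listed, 5 reached the level for counting in the Fcmr+/+ library and 6 in the Fcmr-/- library, and 4 and 5 of these were at least 2-fold higher in members, 0 and 0 at least 2-fold lower. Their median log2 ratios were 2.26 in the Fcmr+/+ and 1.54 in the Fcmr-/- library. Igtp, Irgm1 and Irgm2 belong to the subgroup that keeps the others off host membranes. Igtp had 60.4 CPM in Fcmr+/+ members (interval 44.7 to 79.8) against 10.4 in the remaining cells, and 114 CPM in Fcmr-/- members (interval 108 to 120.1) against 28.8 in the remaining cells. Irgm1 had 69.0 CPM in Fcmr+/+ members (interval 52.1 to 89.6) against 19.8 in the remaining cells, and 113 CPM in Fcmr-/- members (interval 107 to 118) against 37.7 in the remaining cells. Ifi47 had 116 CPM in Fcmr+/+ members (interval 93.6 to 142) against 23.3 in the remaining cells, and 161 CPM in Fcmr-/- members (interval 155 to 168) against 55.0 in the remaining cells. Ifi47 is an effector of the family that lies on chromosome 11, as do Igtp and Irgm1. Irgm2 had log2 ratios of 1.55 and 1.38 and was under 20 CPM in the Fcmr+/+ library. Gm4951, a relative of Iigp1, had 23.4 CPM against 1.21 and 31.4 against 7.61. 9930111J21Rik2 was higher by less than 2-fold, at 0.99 and 0.67.

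Of the ligands, interferon genes were nearly silent in members. Ifnb1 had 8.62 CPM in Fcmr+/+ members and 10.3 in the remaining cells, and 0.699 and 4.35 in the Fcmr-/- library. Ifng had 0 UMIs in Fcmr+/+ members, and its 18 UMIs in Fcmr-/- members lay in 1 cell. Ifna4 and Ifnl3 had 0 UMIs in members of both libraries.

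The interferon receptors and Jak2 lay within 2-fold, whereas Socs1 was higher in both libraries. Of 19 genes listed, 18 reached the level for counting in the Fcmr+/+ library and 18 in the Fcmr-/- library, and 4 and 4 of these were at least 2-fold higher in members, 0 and 0 at least 2-fold lower. Medians of the log2 ratio were 0.26 and 0.15 in the Fcmr+/+ and Fcmr-/- libraries. The receptor chain Ifngr1 had -0.30 and -0.22 in the Fcmr+/+ and Fcmr-/- libraries, Ifngr2 0.27 and -0.01, Ifnar1 0.03 and -0.21, and the kinase Jak2 0.32 and 0.14. Socs1, which inhibits the JAK kinases, had 27.1 CPM in Fcmr+/+ members (interval 17.0 to 41.0) against 8.53 in the remaining cells, and 51.1 CPM in Fcmr-/- members (interval 47.3 to 55.2) against 11.9 in the remaining cells. Irf1, a transcription factor that activates many interferon-gamma genes, had 93.6 CPM in Fcmr+/+ members (interval 73.8 to 117) against 48.9 in the remaining cells, and 129 CPM in Fcmr-/- members (interval 123 to 136) against 51.3 in the remaining cells. Irf1 passed 2-fold in the Fcmr-/- library, at 1.32 against 0.92, and the difference between the libraries was not tested. Irf8, a factor of the monocyte and macrophage lineage, had log2 ratios of 0.57 and 1.00, the latter just past 2-fold. Irf7, of the type I response, passed 2-fold in the Fcmr+/+ library, at 1.28 against 0.55. Irf9, of the type I complex, had -0.23 and -0.11, and Stat2, of the same complex, 1.08 and 0.50.

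Cxcl10 and Ccl8 were higher and Cxcl3 was lower in members of both libraries. Cxcl10, like Cxcl9 a ligand of CXCR3, had 394 CPM in Fcmr+/+ members (interval 352 to 439.9) against 150.2 in the remaining cells, and 896 CPM in Fcmr-/- members (interval 879 to 912) against 204 in the remaining cells. Cxcl11, another ligand of CXCR3, was not analysed here. Under the pooled ranking, Cxcl10 is the only one of the 15 highest whose ratio was larger in the Fcmr-/- library (2.13) than in the Fcmr+/+ library (1.39). With the top 5% of each library by itself the order turned, at 2.28 in Fcmr-/- and 2.62 in Fcmr+/+ cells. Fam26f, Pla2g16 and Fgl2 then had the larger ratio in the Fcmr-/- library. A UMI of Cxcl10 was found in 25 of 38 Fcmr+/+ and 406 of 680 Fcmr-/- members, and in 28.7% and 32.1% of the remaining cells. Ccl8, a ligand of CC receptors that attracts monocytes and T cells, had 2001 CPM in Fcmr+/+ members (interval 1905 to 2100.4) against 618 in the remaining cells, and 3056 CPM in Fcmr-/- members (interval 3026 to 3087) against 1191 in the remaining cells. Ccl5, a chemokine that attracts T cells and monocytes, had 314 CPM in Fcmr+/+ members (interval 277 to 355) against 31.4 in the remaining cells, and 106 CPM in Fcmr-/- members (interval 101 to 112) against 55.7 in the remaining cells. In Fcmr+/+ members 1 cell gave 81 of the 255 Ccl5 UMIs. Chemokines that attract neutrophils had log2 ratios of -0.64 and -1.05 for Cxcl1, -0.49 and -0.80 for Cxcl2, and -1.38 and -1.72 for Cxcl3, of which Cxcl3 passed 2-fold in both libraries. Over the 16 other chemokines listed, 2 and 1 of 14 counted were at least 2-fold higher and 1 and 3 lower, with medians of 0.10 and -0.37.

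Genes of both MHC pathways had median ratios above 0 in members of both libraries, below those of the GTPases, and few passed 2-fold in Fcmr-/- members. Of 21 genes of the class I pathway listed, 20 reached the level for counting in the Fcmr+/+ library and 21 in the Fcmr-/- library, and 14 and 4 of these were at least 2-fold higher in members, 0 and 0 at least 2-fold lower. The median log2 ratio was 1.36 in Fcmr+/+ and 0.77 in Fcmr-/- cells. Among peptide suppliers and transporters, Psmb9, an immunoproteasome subunit, had log2 ratios of 1.61 and 1.09. Tap1, a peptide transporter chain, had 1.69 and 1.05, and Tapbpl, a peptide editor, 2.24 and 1.20. The chains that reach the surface lay under 2-fold, with B2m at 0.62 and 0.31, H2-D1 at 0.56 and 0.40 and H2-K1 at 0.86 and 0.60. Calr, a chaperone of the endoplasmic reticulum, had 0.32 and 0.04.

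Of 12 genes of the class II pathway listed, 7 reached the level for counting in the Fcmr+/+ library and 7 in the Fcmr-/- library, and 6 and 2 of these were at least 2-fold higher in members, 0 and 0 at least 2-fold lower. Their median log2 ratios were 1.35 in the Fcmr+/+ and 0.86 in the Fcmr-/- library. H2-Ab1, a class II chain, had 1903 CPM in Fcmr+/+ members (interval 1809.6 to 2001) against 763 in the remaining cells, and 1793 CPM in Fcmr-/- members (interval 1770.0 to 1816) against 1041 in the remaining cells. Cd74, the invariant chain, had 5583 CPM in Fcmr+/+ members (interval 5422 to 5748) against 2273 in the remaining cells, and 5314 CPM in Fcmr-/- members (interval 5274 to 5354) against 3079 in the remaining cells. H2-DMb1, a chain of the peptide exchange factor, had 473 CPM in Fcmr+/+ members (interval 427 to 523) against 109 in the remaining cells, and 302 CPM in Fcmr-/- members (interval 293 to 312) against 144 in the remaining cells. H2-DMa and H2-DMb1 were the 2 genes of the list past 2-fold in both libraries. Ciita, the master regulator of class II genes, had 17.2 CPM in Fcmr+/+ members against 2.26 and 15.9 in Fcmr-/- members against 4.13, under the 20 CPM needed for counting. Ctss, a protease that trims the invariant chain, had 0.46 and 0.18.

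The co-stimulation and checkpoint list was not limited to genes that meet T cells and also held Slamf8, the macrophage receptor. Of its counted genes, 5 of 13 were at least 2-fold higher in Fcmr+/+ and 3 of 12 in Fcmr-/- members. The median log2 ratios were 0.75 and 0.47. Cd40, the receptor for the T cell ligand CD40L, had 71.5 CPM in Fcmr+/+ members (interval 54.3 to 92.4) against 28.2 in the remaining cells, and 55.2 CPM in Fcmr-/- members (interval 51.2 to 59.4) against 24.5 in the remaining cells. Cd274, which encodes PD-L1, had 177 CPM in Fcmr+/+ members against 62.6 in the remaining cells, and 167 CPM in Fcmr-/- members against 102 in the remaining cells. Il18bp, a secreted decoy for interleukin-18 induced by interferon-gamma, had 59.1 CPM in Fcmr+/+ members against 19.5 in the remaining cells, and 138 CPM in Fcmr-/- members against 54.2 in the remaining cells. Cd40, Il18bp and Slamf8 passed 2-fold in both libraries, and Cd274 in the Fcmr+/+ library, at 1.49 against 0.71. Cd86 lay at 0.94 and 0.48, Cd80 at 0.30 and -0.88 under 20 CPM, and Tnfsf9 at -1.28 and -0.45.

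Type I interferon genes were up to several-fold higher in Fcmr+/+ members and mostly less than 2-fold higher in Fcmr-/- members, a difference between the libraries that was not tested. Of 39 genes listed, 33 reached the level for counting in the Fcmr+/+ library and 33 in the Fcmr-/- library, and 17 and 1 of these were at least 2-fold higher in members, 0 and 0 at least 2-fold lower. Medians of the log2 ratio were 1.03 and 0.48 in the Fcmr+/+ and Fcmr-/- libraries. Isg15, a ubiquitin-like modifier, had 2.00 in Fcmr+/+ and 0.77 in Fcmr-/- members, and Ms4a4c 2.24 and 0.49. Mx1, an antiviral GTPase, had 2.05 and 0.73, with 22 of its 50 UMIs in Fcmr+/+ members from 1 cell. Ifit2 was the one gene of the list past 2-fold in Fcmr-/- members, at 1.08, and Ifit1 had -0.46 and 0.24. The sum of the list in the remaining cells was 3293 CPM in the Fcmr+/+ and 5095 in the Fcmr-/- library, and in members 6618 and 6839.8, so that members of both libraries stood close in level. Among sensors of nucleic acids, Zbp1 had 2.36 and 0.99, Samhd1, which degrades nucleotides, 1.80 and 0.99, and Tmem173, which encodes STING, 1.31 and 1.16. Of the 17 genes of that list, 5 of 11 and 1 of 12 counted were at least 2-fold higher.

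Inflammatory mediators had unlike counts in the libraries, and the difference was not tested. Of 15 and 14 counted genes, 5 and 0 were at least 2-fold higher and 1 and 1 at least 2-fold lower, with medians of 0.27 and 0.10. Il1b had -0.08 and -0.62, Tnf -0.08 and -0.32, and Nos2, which makes nitric oxide, 0.82 under 20 CPM and 0.58. Irg1, which makes itaconate, had 124 CPM against 18.4 in Fcmr+/+ and 121 against 67.2 in Fcmr-/- cells. Il10 in Fcmr+/+ members had 20 of 29 UMIs from 1 cell, and its log2 ratio there was -1.68 with and -3.22 without that cell.

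**Figure D3:**
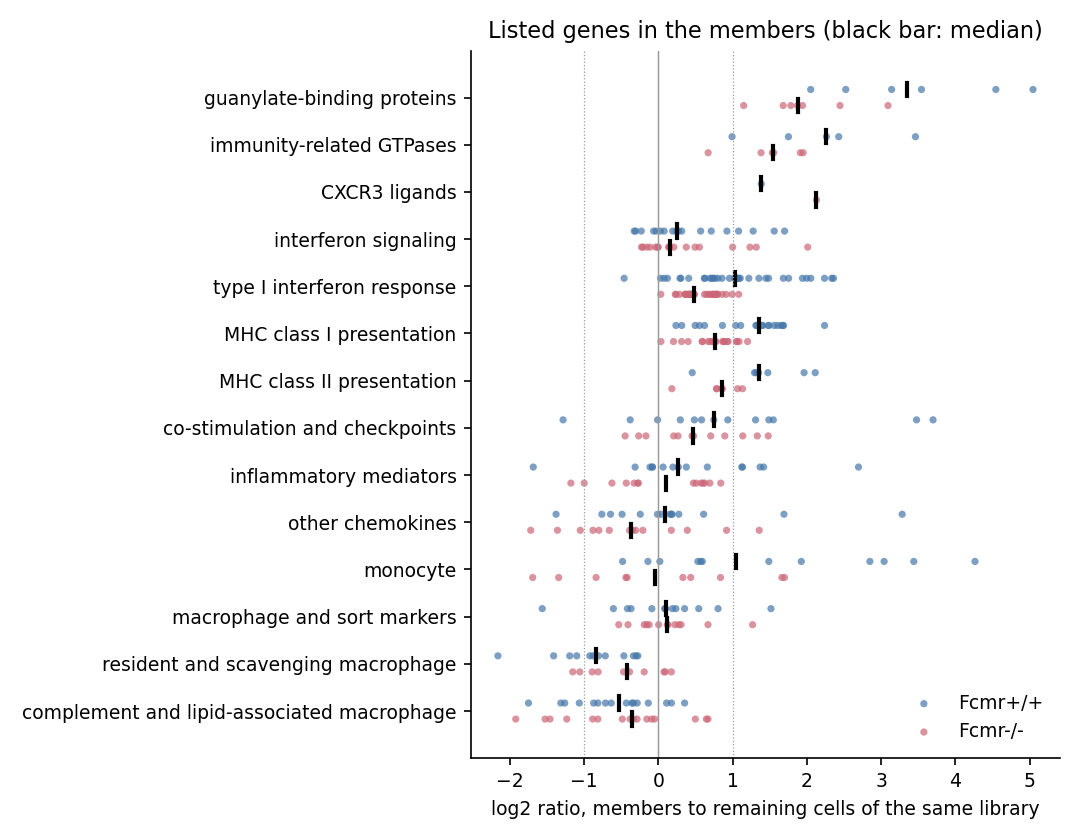
Log2 ratios of members to remaining cells for the listed genes with at least 20 CPM, by list and library, with the median of each as a black bar, 0 as a solid line and 2-fold as dotted lines; genes of the rule are left out. The guanylate-binding proteins lie furthest to the right, with medians of 3.34 and 1.88, and the resident macrophage genes to the left, with -0.84 and -0.43.

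Spp1, Mmp12, Ctsl, Igf1 and Pf4 were lower in members of both libraries. The 15 lowest were Spp1, Rnf128, Fabp4, Cxcl3, Mmp12, Abca1, Pdpn, Igf1, Itga6, Ctsl, Pf4, Clec4d, Ctsk, Rgcc and Gpnmb. Spp1, which encodes osteopontin, had 813 CPM in Fcmr+/+ members (interval 752 to 878) against 2731 in the remaining cells, and 1437 CPM in Fcmr-/- members (interval 1416 to 1458) against 5432 in the remaining cells. Mmp12, macrophage elastase, had 255 CPM in Fcmr+/+ members (interval 221 to 292) against 634 in the remaining cells, and 302 CPM in Fcmr-/- members (interval 292 to 311) against 869 in the remaining cells. Ctsl, a lysosomal protease, had 949.8 CPM in Fcmr+/+ members (interval 884 to 1019) against 1985 in the remaining cells, and 1043 CPM in Fcmr-/- members (interval 1026 to 1061) against 2450.3 in the remaining cells. In Fcmr+/+ members 1 cell gave 110 of 207 Mmp12 UMIs, and without it the ratio was -2.36. Abca1, which exports cholesterol, had -1.24 and -1.31, and Fabp4, a fatty acid carrier, -1.43 and -1.50. Igf1, a growth factor, had 121 CPM in Fcmr+/+ members against 322 in the remaining cells, and 111 CPM in Fcmr-/- members against 249 in the remaining cells. Pf4, a chemokine of platelets and macrophages, had 1868 CPM in Fcmr+/+ members against 3996 in the remaining cells, and 1578 CPM in Fcmr-/- members against 3283 in the remaining cells. Rgcc and Gpnmb fell short of 2-fold in 1 library each, at -0.90 in Fcmr+/+ and -0.88 in Fcmr-/- members.

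Lipid-associated genes were lower or level in members, and the C1q chains lay above 0. Of 16 genes listed, 16 reached the level for counting in the Fcmr+/+ library and 16 in the Fcmr-/- library, and 0 and 0 of these were at least 2-fold higher in members, 4 and 4 at least 2-fold lower. The median log2 ratio was -0.53 in Fcmr+/+ and -0.36 in Fcmr-/- cells. C1qa had 2885 CPM in Fcmr+/+ members against 2256 and 3408 in Fcmr-/- members against 2142, a ratio above 0 in both. C1qb had 0.18 and 0.50, and C1qc 0.11 and 0.65. Apoe, a lipid carrier, had -0.63 and -0.29, Trem2, a lipid receptor, -0.81 and -0.15, and Cd9 -0.43 and -1.46. Of the resident and scavenging macrophage list, 4 of 12 and 2 of 10 counted genes were at least 2-fold lower and 0 higher, and Mrc1, the mannose receptor, had -0.71 and -0.19.

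Monocyte and mitosis genes had unlike ratios in the libraries. Of 14 genes listed, 12 reached the level for counting in the Fcmr+/+ library and 10 in the Fcmr-/- library, and 6 and 2 of these were at least 2-fold higher in members, 0 and 2 at least 2-fold lower. Their median log2 ratios were 1.04 in the Fcmr+/+ and -0.04 in the Fcmr-/- library. Ly6c2 had 251 CPM in Fcmr+/+ members against 29.7, and 141 in Fcmr-/- members against 104. Plac8 had 1.93 and 0.33, Fn1, fibronectin, -0.48 and -1.69, and Chil3 1.49 and -0.84. Of the G2 and mitosis list, the sum was 388 CPM in Fcmr+/+ members and 586 in the remaining cells, and 785 and 508 in the Fcmr-/- library. No gene of that list passed 2-fold in Fcmr-/- members, and 1, Top2a, was at least 2-fold lower in Fcmr+/+ members, where it had 23 UMIs. The S phase list had medians of 0.41 and 0.54. Over the alternatives the Fcmr+/+ median ran from -0.35 to 0.55 and kept its sign in 16 of 17. These differences between the libraries rest on 38 Fcmr+/+ cells and were not tested.

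Levels were also followed along the score, in 6 steps: cells with no UMI of the 3 genes, the rest below the top 20%, the top 20 to 10%, the top 10 to 5%, and members in the top 5 to 2% and the top 2%. Serpina3g went from 2.51 CPM in Fcmr-/- cells of step 1 through 73.0 in step 4 to 385 in step 6. AW112010 went from 67.6 through 595 to 1163, and H2-Ab1 from 803 through 1379 to 2316. Each was higher at every step than at the one before. Isg15 reached a plateau instead. It stood at 144, 221, 407, 470.3, 423 and 459.7 CPM over the 6 steps of Fcmr-/- cells, and Ifit3 was highest at step 4, with 90.2. In the Fcmr+/+ library Ifit3 had 239.7 and 238 CPM in steps 3 and 4 and 47.8 and 63.5 in members, and Cxcl10 859 and 1289 and then 301 and 493. Steps 3 to 6 held 154, 41, 18 and 20 Fcmr+/+ cells. Spp1 in Fcmr-/- cells stood at 8369, 4816, 2385, 1691, 1625 and 1110.1 CPM, lower at every step, and Pf4 went from 4053 to 1382. Mertk stayed between 45.6 and 53.5 CPM in Fcmr-/- cells.

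**Figure D4:**
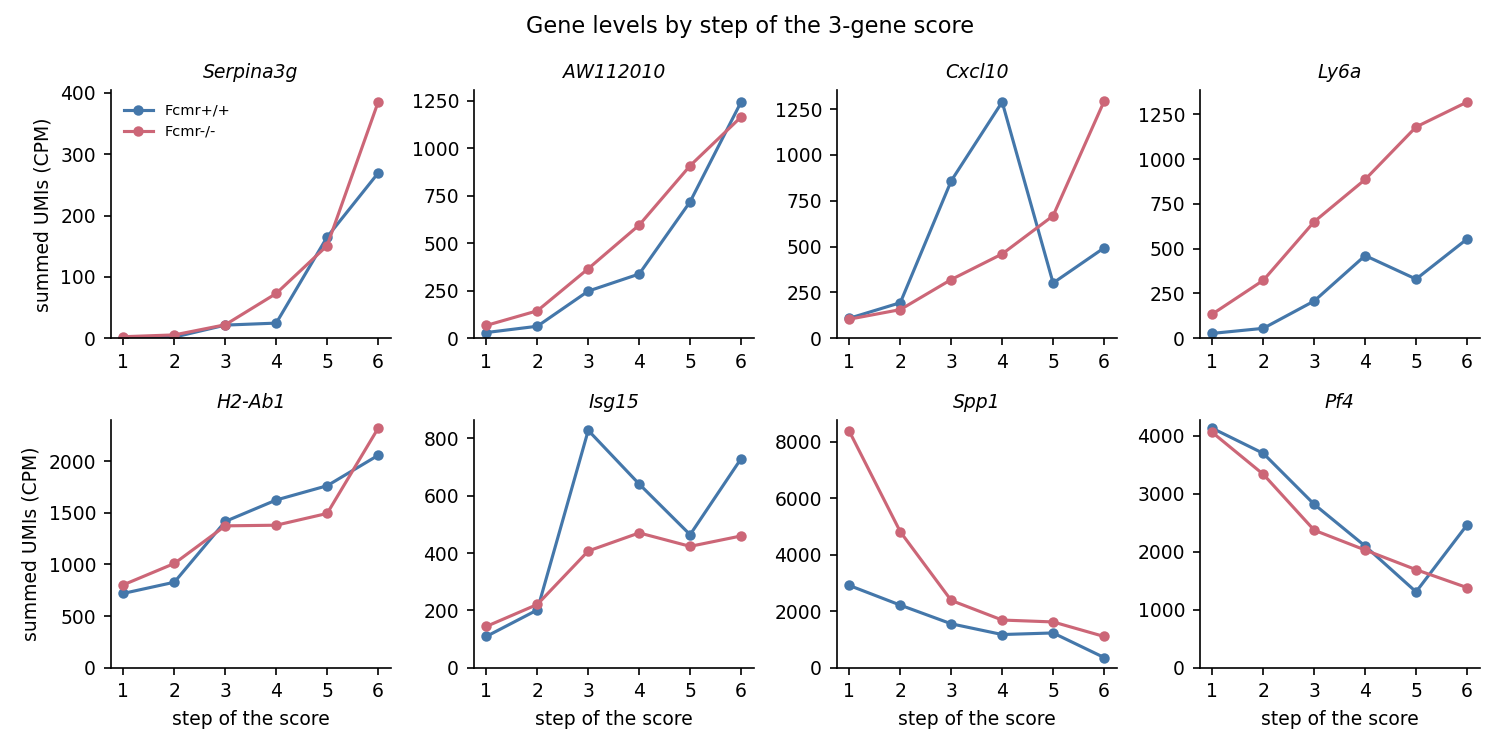
Summed UMIs (CPM) of 8 genes at the 6 steps of the 3-gene score, from cells with no UMI of the 3 genes (step 1) to the top 2% (step 6), steps 5 and 6 being members; 1 point per library and step. Serpina3g in Fcmr-/- cells is at 2.51 CPM at step 1 and 385 at step 6, while Spp1 is at 8369 and 1110.1.

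Fcmr-/- members differed among themselves by which gene of the rule led. Cxcl9 had the most UMIs of the 3 in 402 Fcmr-/- members, Gbp2 in 173 and Iigp1 in 105, with ties in 16 cells given to the gene named first in the rule. Of the Fcmr+/+ members, 23 were led by Cxcl9, 14 by Gbp2 and 1 by Iigp1. The class II list summed to 17196 (interval 17105 to 17286) CPM in Fcmr-/- members led by Cxcl9, 12809 (interval 12678 to 12941) in those led by Gbp2 and 11549.8 (interval 11398 to 11703) in those led by Iigp1. The type I list was instead lowest where Cxcl9 led, with 6001 (interval 5948 to 6055), 8896 (interval 8786 to 9006) and 7347 (interval 7226 to 7469) CPM. The immunity-related GTPases other than Iigp1 summed to 423 (interval 409 to 438), 606 (interval 578 to 635) and 778 (interval 739 to 818) CPM, and the guanylate-binding proteins other than Gbp2 to 489.7 (interval 475 to 505), 847 (interval 813 to 881) and 692 (interval 655 to 729.8). In Fcmr-/- members each GTPase family was highest where its own member of the rule led. The groups were formed from UMIs of the same rule genes that chose the members, so this order is a description and not a test. In Fcmr+/+ members this order cannot be judged, since only 1 cell was led by Iigp1. The guanylate-binding proteins had 220.3 CPM in cells led by Cxcl9, 872 in those led by Gbp2 and 1233 in that cell. The immunity-related GTPases had 175, 574 and 524 CPM, the last from 17 UMIs (interval 305 to 839). Socs1 had 40.9, 49.0 and 97.5 CPM in Fcmr-/- members led by Cxcl9, Gbp2 and Iigp1, and the G2 and mitosis list 901, 691 and 430.3. In Fcmr+/+ members the G2 and mitosis list had the other order, with 237 CPM in the 23 cells led by Cxcl9 and 661 in the 14 led by Gbp2, and the class II list was nearly level, at 17074 and 16611. Markers of other cell types differed with the leading gene in Fcmr-/- members, but not in 1 direction. The T and NK cell list summed to 26.1, 1.41 and 1.56 CPM in cells led by Cxcl9, Gbp2 and Iigp1. Of its 219 UMIs, 212 lay in cells led by Cxcl9, and 215 lay in 5 members, so this sum rests on few cells. The dendritic cell list had 21.2, 8.11 and 3.65 CPM in the same order, and the stroma list 4.31, 4.23 and 2.61. The neutrophil list had 38.2, 43.4 and 48.5 CPM and the melanoma list 58.5, 74.4 and 62.6, both lowest where Cxcl9 led. The B cell list was highest where Iigp1 led, at 18.3 CPM. Median depth was 18409.5, 14382 and 17487 UMIs, and the part of depth and of these markers in the differences was not tested.

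**Figure D5:**
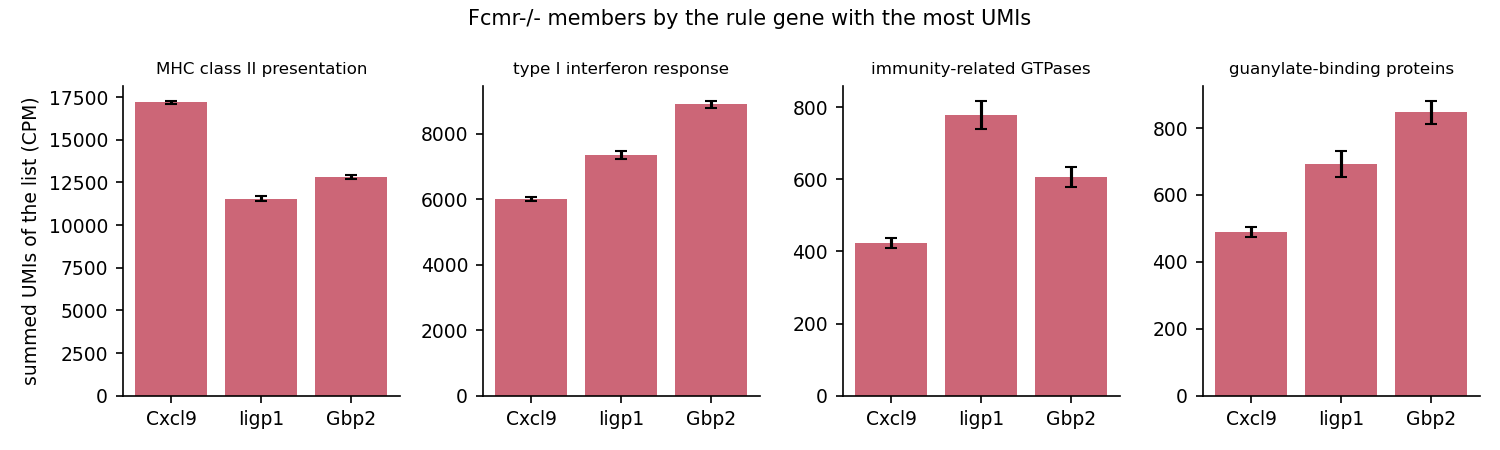
Summed UMIs (CPM) of 4 gene lists in Fcmr-/- members grouped by the gene of the rule with the most UMIs in the cell (402, 105 and 173 cells for Cxcl9, Iigp1 and Gbp2); bars start at 0 and error bars are exact 95% Poisson intervals, counting error only. The class II list is highest in cells led by Cxcl9, at 17196 CPM, and the immunity-related GTPases in cells led by Iigp1, at 778 CPM.

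Members were mostly other cells than the 718 that scored highest on the type I interferon genes Isg15, Ifit1, Ifit2, Ifit3 and Rsad2, on 4 class II genes or on 3 monocyte genes. They shared 62 cells with the first (8.64% of each set), 72 with the second (10.0%) and 59 with the third (8.22%). Each set is 5% of all cells, so sets without any relation would also be mostly other cells. The 3 shares lay above 5%. Among Fcmr-/- cells, 8.09% of members and 5.34% of the remaining cells were type I interferon-high, 9.71% and 4.66% were class II-high, and 7.35% and 6.13% were monocyte-like. Among Fcmr+/+ cells the same shares were 18.4% of the 38 members and 4.20% of the remaining cells, 15.8% and 4.83%, and 23.7% and 3.33%. The other sets also came less one-sidedly from the Fcmr-/- library, with 62.1%, 56.7% and 69.5% of their cells against 94.7% of members. In Fcmr-/- cells Serpina3g had 236 CPM in members, 56.9 in type I interferon-high, 42.5 in class II-high and 38.1 in monocyte-like cells. Ccl8 had 3056, 958, 598 and 631 CPM in the same order. Isg15 was lowest in members of the 4 sets of Fcmr-/- cells, at 437 CPM against 2409, 584 and 1146. In Fcmr+/+ cells Isg15 had 593 CPM in members against 1882, 382 and 705. Its level in the type I interferon-high cells follows from their choice by Isg15. Cxcl10, not used in that choice, was highest in those cells, at 1985 against 896 CPM in Fcmr-/- members and 1625 against 394 in Fcmr+/+ members. These sets share cells, and no test was made between them.

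Because pooled ranking left 38 Fcmr+/+ cells, the top 5% of each library was also taken by itself, which gave 318 Fcmr+/+ cells from a score of 1.22 upward and 400 Fcmr-/- cells from 16.5 upward. Of the 15 genes high in members, 14 reached 20 CPM in this wider Fcmr+/+ group and were at least 2-fold higher there, with Serpina3g at 4.75, Gbp4 at 3.77, AW112010 at 3.28, Ly6a at 2.97 and Slamf8 at 1.99, and Cxcl10 at 2.62. Upp1, with 18.9 CPM there, was under the level for counting. Most genes low in members did not: Spp1 had -0.65, Mmp12 -0.23, Ctsl -0.25 and Rgcc 0.46, and only Fabp4, at -1.08, remained past 2-fold among the 15. In the Fcmr-/- library Spp1 had -2.24 and Mmp12 -1.80 under the same ranking. Which genes were lower in Fcmr+/+ members thus depended on where the limit was set.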

How the data were processed

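The deposited matrices hold raw UMI counts per gene and cell. Per the study's methods, the authors mapped the reads to GRCm38 and counted UMIs with Cell Ranger; the gene annotation is not given in the sources used here. Seurat 2.1.0, named in the labels, was not used here, since the files hold no cluster labels. Cells with 200 to 7000 genes and at most 30% mitochondrial UMIs were kept, 6352 of 6392 and 7999 of 8017. Members were the top 5% of pooled cells by the 3-gene share of UMIs. The members and gene lists were chosen with earlier results of these data known. UMIs were summed over members and over the remaining cells of each library and compared as log2 of CPM + 1. Genes counted had at least 20 CPM in either group. Named genes had at least 50 CPM in each library and were ranked by the library with the smaller log2 ratio; they comprise the 15 highest, the 15 lowest, the 3 genes of the rule, Fcmr and genes of the lists. Thinning drew 5000 UMIs from each cell, with no cell shallower than that. No doublet caller was run; members were also taken without T and NK marker cells and without the 5% of cells with the most UMIs. With 1 library per genotype no test was run. Python 3.11.15, numpy 2.4.6, scipy 1.17.1 and pandas 2.3.3 were used, matplotlib 3.10.9 drew the figures, and the ratios were checked on simulated counts. Coordinates are GENCODE's in GRCm38, and promoters are RefSeq's in GRCm38.p6. Some genes are not reported here.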

Additional observations from a re-analysis of the deposited data

Results flagged for a closer look

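Retnla, which encodes a resistin-like protein secreted by alternatively activated macrophages, was the 1 gene past 2-fold in opposite directions in the libraries, and was singled out after its values were seen. In Fcmr+/+ members it had 285 CPM against 72.7 in the remaining cells, a log2 ratio of 1.95, from 231 UMIs in 14 cells, and 1.47 without the cell that gave 31.6% of them. In Fcmr-/- members it had 8.24 CPM against 41.5, a log2 ratio of -2.20, from 106 UMIs in 22 cells. The ratio was -2.97 without the cell that gave 46.2% of these UMIs. Without Iigp1 in the rule it turned to 0.0367, and after thinning to 0.41, so the opposite directions were not kept there. The difference between the libraries was not tested.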

How the results depend on the processing

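The Fcmr-/- share of members was between 93.0% and 95.3% over 10 alternatives. Those were the top 2% or 10% of cells, each gene of the rule left out, the mean of log values, thinning, no cell filter, no T and NK marker cells, and no cells of highest depth. Counts of genes moved by more than 1.5 times in 18 of 68 cases. In Fcmr+/+ members, 249 genes were at least 2-fold higher with the top 2%, 247 without Cxcl9 in the rule, 444 after thinning, 288 with a minimum of 5 CPM and 100 with 50 CPM. At least 2-fold lower there were 294 genes with the top 2%, 47 with the top 10%, 193 without Cxcl9, 517 after thinning, 12 with the top 5% of each library by itself, 420 at 5 CPM, 40 at 50 CPM, 67 with 5 CPM added and 168 with the mean of per-cell shares. In Fcmr-/- members the minimum of 5 CPM gave 95 higher and 97 lower genes, and that of 50 CPM 39 and 29. A lower minimum counts more genes by construction; for the other settings the cause was not tested. Among the ranked genes and Retnla, 30 passed 2-fold in each library. Over all alternatives they kept their direction in 540 of 540 values in Fcmr+/+ and 538 of 540 in Fcmr-/- members, and stayed past 2-fold in 498 and 525. Rgcc, under 2-fold in Fcmr+/+ members, kept its direction in 15 of 18.

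The Retnla ratio in Fcmr-/- members reversed to 0.0367 without Iigp1 in the rule and to 0.41 after thinning. Medians near 0 changed sign under some settings for the inflammatory, melanoma, monocyte, other chemokine, S phase and immediate-early lists, in 1 library or both. The alternative without the member that held most UMIs of a named gene was chosen after seeing the data. No paired analysis was possible because each genotype has 1 library, and no library could be left out. The 38 Fcmr+/+ members limit what can be said of that library.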

Other observations

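Few genes of cell death passed 2-fold in members. Of 16 listed, 2 of 13 counted were at least 2-fold higher in Fcmr+/+ and 0 of 14 in Fcmr-/- members, and 0 were lower in either, with median log2 ratios of 0.36 and 0.36. Mlkl, the effector of necroptosis, had 45.6 CPM in Fcmr+/+ members against 15.2, and 37.2 in Fcmr-/- members against 20.7. Casp1, the protease of inflammasomes, had 94.9 against 43.0 CPM and 107 against 65.5. Nlrp3, an inflammasome sensor, had log2 ratios of -0.30 and -0.66.

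Immediate-early and stress genes, which tissue digestion can induce, summed to 9526 CPM in Fcmr+/+ members against 10099.9 in the remaining cells, and to 7995 against 9374 in the Fcmr-/- library. None of 16 counted genes passed 2-fold in Fcmr+/+ members, and 1 of 17 was at least 2-fold lower in Fcmr-/- members, with medians of -0.06 and -0.26.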
